A study of Homo sapiens with 12 samples.

Results

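Small nucleolar RNAs (snoRNAs) are short non-coding RNAs that guide the chemical modification and processing of ribosomal RNA (rRNA) in the nucleolus. Box C/D snoRNAs (SNORD) mostly guide 2′-O-methylation with the methyltransferase fibrillarin, and box H/ACA snoRNAs (SNORA) mostly guide pseudouridylation with the synthase dyskerin. Most human snoRNAs have no promoter of their own: they lie in introns of other genes, often genes for ribosomal proteins or translation factors, and are cut from the spliced introns and trimmed at their ends. The snoRNA genes described here are those with a SNORD or SNORA symbol followed by a number, read from probe sets that carry this symbol alone. There were 188 of them among 17958 genes compared, 121 of box C/D and 67 of box H/ACA, each represented by its probe set of highest 12-array mean.

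Affymetrix human gene arrays were hybridised with RNA of BT549, a triple-negative breast cancer cell line. Cells received a pool of siRNAs against c-Jun and then tumour necrosis factor alpha (TNFα), c-Jun siRNA and then vehicle, control siRNA and then TNFα, or control siRNA and then vehicle. All groups thus carried a transfected siRNA, for 72 h, and the treatment lasted 6 h. JUN encodes c-Jun, 1 partner of the dimeric AP-1 transcription factors, TNFα is an inflammatory cytokine, and the design asks how far the response to TNFα depends on c-Jun. Each of the 4 groups has 3 arrays. The labels do not say whether these came from separate cultures, so p-values measure the spread between these arrays, and precision is limited by their number.

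JUN averaged 10.36 ± 0.03 with c-Jun siRNA and TNFα, 9.83 ± 0.02 with c-Jun siRNA and vehicle, 11.07 ± 0.04 with control siRNA plus TNFα and 10.35 ± 0.01 with control siRNA and vehicle (log2 expression, SD, n = 3 each). Its log2 fold change for c-Jun siRNA over control siRNA was -0.52 ± 0.03 with vehicle and -0.71 ± 0.03 with TNFα, a partial loss. Array medians lay between 5.62 and 5.68. The line's mesenchymal markers VIM and CD44 averaged 12.7 each, while the oestrogen receptor gene ESR1 averaged 4.38 and the leukocyte gene PTPRC 3.81. Other luminal or epithelial genes were mixed. PGR, EPCAM and CDH1 averaged 3.72, 4.20 and 4.87, while ERBB2 and GATA3 averaged 8.81 and 8.46, above the 6.97 median of all genes. The array name of c-Jun siRNA and TNFα replicate 3 reads like a second run of replicate 1. It correlated with replicate 1 at 0.99886, against 0.99844 between replicates 1 and 2. Averaging it with replicate 1 gave 53 rises and no falls for TNFα with control siRNA, against 46 and 0 without averaging, and 2 rises and 19 falls for c-Jun siRNA with TNFα, against 3 and 23. The array names carry a code that appears to give a plate column, and the columns are spread unevenly over the groups. Values within a column, or with the column as a block, stand beside the results.

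The mature RNAs are 60 to 205 nucleotides long in box C/D (median 81) and 123 to 236 in box H/ACA (median 134). The RNA was purified on silica columns, which retain RNAs this short poorly, and was copied by random priming, so a probe set may also read longer precursors or unspliced RNA of the gene around it. The array cannot tell these apart, and in a bulk culture fewer expressing cells and less RNA per cell cannot be told apart either. Signals of different probe sets are not comparable with each other, and they are given only to show which genes read near the bottom of the scale. The members' 12-array means ran from 2.55 to 12.96, and 60 of the 188 lay under 4, where 13.5% of all genes lie. Most of the dim ones belong to the repeated imprinted families: all 23 SNORD115 copies lay at or below 3.22, and the 21 SNORD116 copies reached 6.21 at most. These families sit in the chromosome 15 region lost in Prader-Willi syndrome and are known for expression in neurons. Near-identical copies can share probe signal, so their values are uncertain copy by copy.

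By position in the RefSeq gene table of GRCh38.p14, 182 of the 188 snoRNA genes lie within the span of another gene, called here the holding gene. For 86 of them (35 box C/D and 51 box H/ACA) the holding gene, 63 distinct genes in all, had a probe set with its symbol alone. The number of the probe set taken for RPL23A lies nearer those of chromosome 3 snoRNAs than those of its own snoRNAs on chromosome 17. It may read another locus, which was not checked. Many genes of the translation machinery start transcription inside a run of pyrimidines, the feature that defines TOP (terminal oligopyrimidine) mRNAs. The start sites below are shown because they belong to holding genes of snoRNAs described in the results and differ in this feature. Each is the RefSeq GRCh38.p14 sequence from 15 bases before to 15 bases from the start site on, 5′ to 3′, and capitals mark a run of at least 8 bases that holds only C and T.
RPL13A (chr19:49487593-49487622, plus strand): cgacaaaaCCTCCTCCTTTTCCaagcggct
RPLP2 (chr11:809952-809981, plus strand): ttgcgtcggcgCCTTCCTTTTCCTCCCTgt
TAF1D (chr11:93741481-93741510, minus strand): acggaaatagccaaCCCTTTTCTTCCgcac
RPSA (chr3:39406705-39406734, plus strand): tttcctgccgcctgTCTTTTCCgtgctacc
DKC1 (chrX:154762849-154762878, plus strand): gggcagtgcgcgggtgggtgggtcctagca
NOL11 (chr17:67717921-67717950, plus strand): gcgcggccgtacttaggtttgctcaaaatg
KHDC4 (chr1:155934399-155934428, minus strand): gtgacgagaggtggtagtcggatagttggc
HSPA8 (chr11:123062122-123062151, minus strand): cgggcggaaaccggtctcattgaactcgcc
RPL13A, RPLP2 and RPSA encode ribosomal proteins and TAF1D a subunit of the RNA polymerase I initiation complex; their runs are 14, 17, 8 and 12 bases long. The longest runs of DKC1 (dyskerin), NOL11 (an rRNA processing factor), KHDC4 (an RNA-binding protein) and HSPA8 (a constitutive heat-shock chaperone) were 4, 3, 2 and 4 bases. Of the 74 holding genes with an entry in the RefSeq promoter table, 29 (39.2%) had such a run of 8 or more in this window, against 13.4% of 27305 genes in the table. Among the 28 that hold a snoRNA called higher with TNFα and control siRNA it was 9 (32.1%). The AP-1 motif TGANTCA, which reads the same on both strands, occurred in the 300 bases around the start (250 before it and 50 from it on) of 1 of the 74 holding genes, HTR2C, and in 7.76% of all genes in the table. These are descriptions of letters in a window and name no bound site.

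In control siRNA cells the snoRNA genes called for TNFα all rose. With control siRNA, 46 of the 188 snoRNA genes were higher with TNFα than with vehicle and none was lower (limma, adjusted p under 0.05 over all 17958 genes). Of all genes 35.7% were called, 13.8% higher and 21.9% lower, so the members' rises, 24.5% of them, exceeded the background share while their falls were absent. At an unadjusted p under 0.05, 63 snoRNA genes passed in either direction. The rises were in both classes: 31 of 121 box C/D and 15 of 67 box H/ACA genes. They were small: the median log2 fold change of the 46 was 0.285. Over all members the median was 0.088 in box C/D and 0.12 in box H/ACA, against -0.023 over all genes. Without the SNORD113 to SNORD116 copies, 43 of 138 rose. Among the 71 members whose mean exceeded the median of all genes, 33 rose and none fell, while of all genes above that median 1958 of 8979 rose and 3070 fell. Within position column 7, which holds 2 arrays of each of these groups, the count was again 46 higher and 0 lower. The shares of all genes called within that column are not given, so this count has no background beside it.

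**Figure D1:**
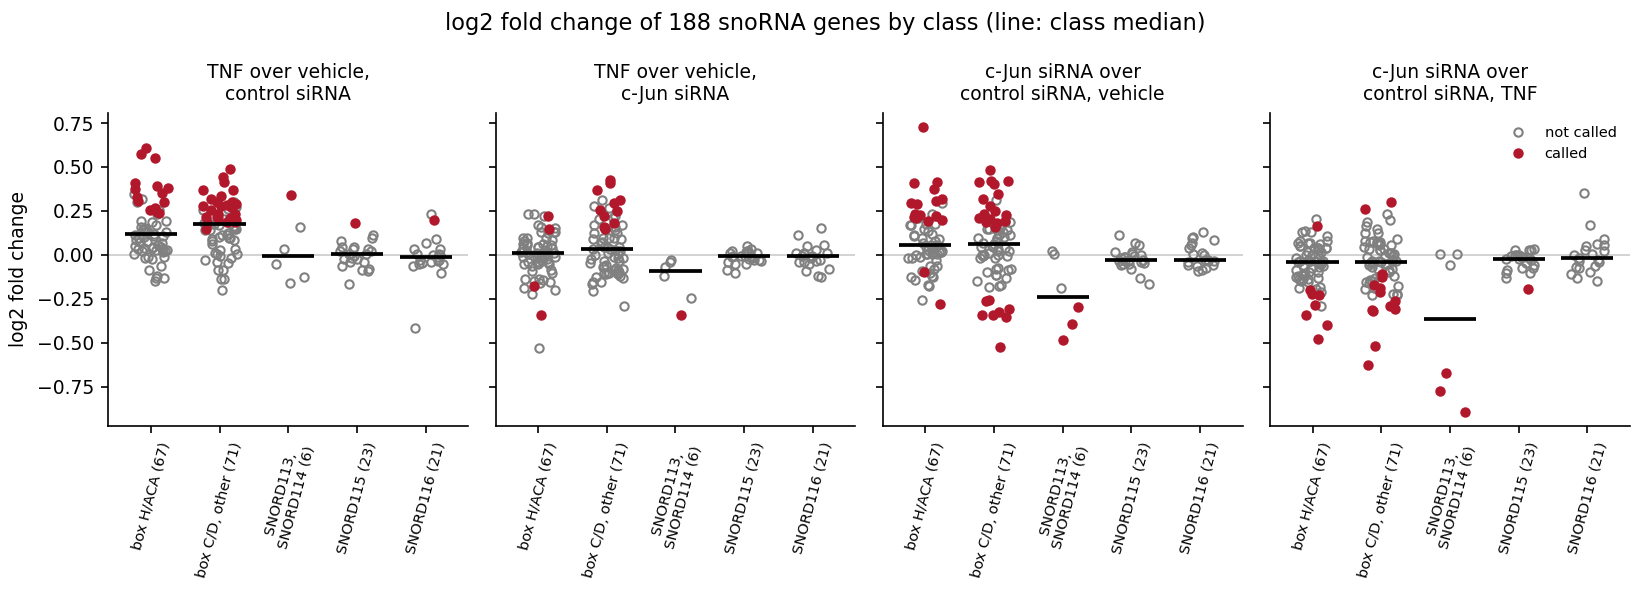
Log2 fold change of each of the 188 snoRNA genes in the 4 pairwise comparisons, by class, with called genes (limma adjusted p under 0.05) filled and a line at each class's median. With TNFα and control siRNA all 46 called genes lie above 0. For c-Jun siRNA over control siRNA with TNFα 23 of 26 called genes lie below 0. Those 23 are 12.2% of the members, near the 14.4% of all genes called lower.

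The 3 largest rises were in box H/ACA genes. SNORA56, which guides rRNA pseudouridylation and lies in DKC1, the gene of the pseudouridine synthase itself, read 8.24, 8.04 and 8.19 on the TNFα arrays, against 7.41, 7.62 and 7.63 on the vehicle arrays with control siRNA. The groups did not overlap, and the log2 fold change was 0.61 ± 0.06 (SE, adjusted p = 3.52e-07). SNORA80E, in KHDC4, read 8.37, 8.25 and 8.46 with TNFα, against 7.77, 7.79 and 7.80 with vehicle, a log2 fold change of 0.57 ± 0.12. SNORA62, known as E2 and held by RPSA, read 7.71, 7.82 and 7.95 with TNFα, against 7.23, 7.22 and 7.38 with vehicle, a log2 fold change of 0.55 ± 0.10. In each of these the lowest TNFα array lay above the highest vehicle array. SNORA38B, in NOL11, read 10.79, 10.77 and 10.73 with TNFα, against 10.35, 10.25 and 10.55 with vehicle, a log2 fold change of 0.38 ± 0.08.

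Of box C/D, SNORD83A and SNORD43 both lie in RPL3, the gene of a large-subunit ribosomal protein. SNORD83A read 6.13, 6.01 and 6.01 with TNFα, against 5.52, 5.58 and 5.59 with vehicle, a log2 fold change of 0.49 ± 0.10. SNORD43 read 7.30, 7.43 and 7.39 with TNFα, against 6.88, 7.12 and 7.0 with vehicle, a log2 fold change of 0.37 ± 0.07. Both rose with no overlap of the arrays. SNORD52, in the non-coding gene SNHG32, read 8.12, 8.40 and 8.23 with TNFα, against 7.95, 7.77 and 7.72 with vehicle, a log2 fold change of 0.44 ± 0.08. All 4 box C/D snoRNAs of RPL13A rose: SNORD32A by 0.19, SNORD33 by 0.15, SNORD34 by 0.29 and SNORD35A by 0.19 on the log2 scale. SNORD33 was not called with the position column as a block, without control siRNA and vehicle replicate 3 or without control siRNA and TNFα replicate 3. SNORD13, which is not held by any gene in the table and guides acetylation of 18S rRNA, read 13.05, 12.99 and 13.13 with TNFα, against 12.73, 12.94 and 12.87 with vehicle, a log2 fold change of 0.21 ± 0.05 (adjusted p = 0.00138). Of the probe sets with the highest signals, SNORA71D, SNORA3A, SNORD57, SNORA71C and SNORA23 were not called in this comparison, with log2 fold changes between -0.01 and 0.05.

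**Figure D2:**
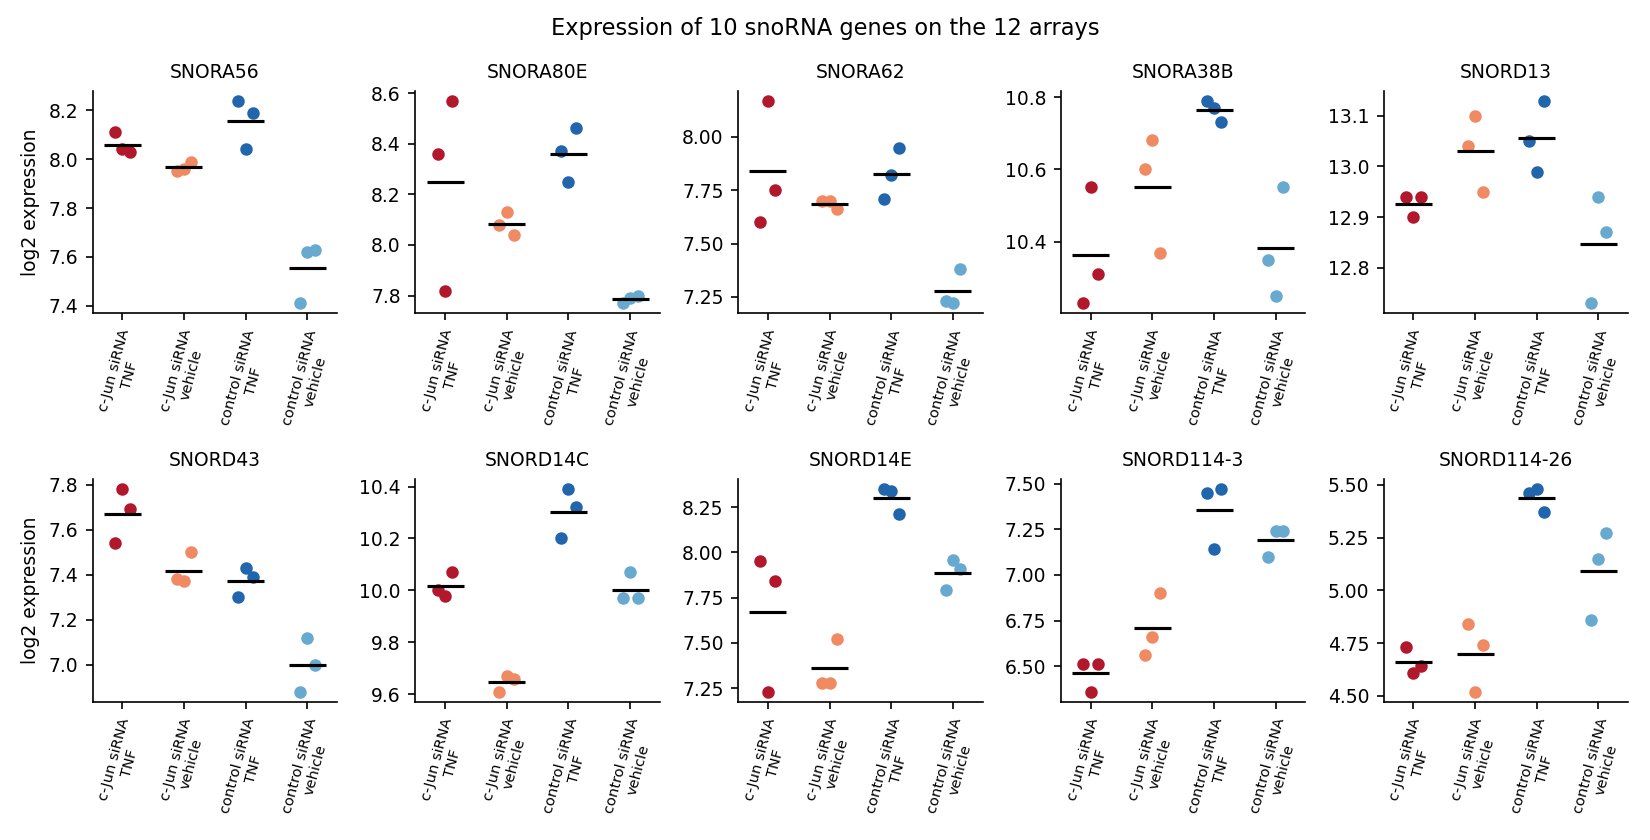
Log2 expression of 10 snoRNA genes on the 12 arrays; each point is an array and each line a group mean, and every panel has its own axis range. In SNORA56, SNORA80E and SNORA62 the 3 control siRNA and vehicle arrays lie below all 9 others, and in SNORD114-3 and SNORD114-26 the c-Jun siRNA arrays lie below the control siRNA arrays.

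With c-Jun siRNA in place, 13 snoRNA genes were higher and 3 lower with TNFα than with vehicle, against 29.6% of all genes, 11.3% higher and 18.3% lower. Of the 13 rises 11 were box C/D and 2 box H/ACA, and the class medians were -0.005 in box C/D and 0.009 in box H/ACA. Centring each array on its median turned the split to 11 higher and 8 lower. The shares of all genes in that setting are not given, so the turn is not shown to be particular to snoRNAs. All c-Jun siRNA and vehicle arrays lie in position column 5 and no c-Jun siRNA and TNFα array does, so no within-column value exists. With the column as a block 8 were higher and none lower, where 5.85% of all genes were higher and 7.38% lower. Both TNFα comparisons called 9 genes higher: SNORA6, SNORA67, SNORD12C, SNORD14C, SNORD42B, SNORD43, SNORD4A, SNORD4B and SNORD74. They are 19.6% of the 46 and 69.2% of the 13, and the 2 comparisons share no arrays. The same overlap was not counted over all genes, so it is not shown to be particular to snoRNAs. SNORD42B, in RPL23A, was not called with control siRNA with the position column as a block or when control siRNA and vehicle replicate 2 or 3, or control siRNA and TNFα replicate 2 or 3, was left out.

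In c-Jun siRNA cells SNORD14C, a copy of U14 that is known in yeast to be needed for 18S rRNA processing, read 10.00, 9.98 and 10.07 with TNFα, against 9.61, 9.67 and 9.66 with vehicle (log2 fold change 0.37 ± 0.05, adjusted p = 4.9e-06). With control siRNA it read 10.20, 10.39 and 10.32 with TNFα, against 9.97, 10.07 and 9.97 with vehicle (log2 fold change 0.30 ± 0.05). The TNFα arrays lay above the vehicle arrays under either siRNA. The next 3 genes were called with c-Jun siRNA and not with control siRNA, and no difference between the siRNAs was called for them. SNORD75, one of the box C/D snoRNAs in the growth-arrest gene GAS5, read 8.88, 8.60 and 8.62 with TNFα and c-Jun siRNA, against 8.22, 8.25 and 8.42 with vehicle, a log2 fold change of 0.41 ± 0.07. With control siRNA it read 8.82, 8.83 and 8.63 with TNFα, against 8.65, 8.56 and 8.61 with vehicle, one of 0.16 ± 0.07 (adjusted p = 0.112). SNORD54, in RPS20, had a log2 fold change of 0.31 ± 0.09 with c-Jun siRNA and 0.11 ± 0.09 with control siRNA (adjusted p = 0.368). SNORD57, in the C/D core protein gene NOP56, had 0.18 ± 0.04 with c-Jun siRNA and 0.03 ± 0.04 with control siRNA (adjusted p = 0.66). The 3 falls were SNORA2A at -0.34 ± 0.11, SNORD113-4 at -0.34 ± 0.09 and SNORA3A at -0.18 ± 0.05. SNORA2A was not called without c-Jun siRNA and vehicle replicate 1 or 2, or without c-Jun siRNA and TNFα replicate 2, and SNORD43 was not called without that last array. With the position column as a block, none of the 3 falls was called (adjusted p 0.983 for SNORA2A, 0.23 for SNORD113-4 and 0.0553 for SNORA3A), nor were the rises of SNORD57 (0.283), SNORD42B (0.379), SNORD75 (0.149) and SNORD43 (0.127), while SNORD14C and SNORD54 were.

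The difference between the TNFα effects was tested as an interaction, the log2 fold change with c-Jun siRNA minus that with control siRNA. It was called for 9 snoRNA genes, 4.79% of the members and all negative. Of all genes 5.47% were called, 3.59% negative and 1.88% positive, so the members' negative calls lay near the background share. Of the 9 snoRNA genes 4 are box C/D (SNORD13, SNORD34, SNORD35A and SNORD41) and 5 box H/ACA (SNORA1, SNORA38B, SNORA48, SNORA52 and SNORA56). SNORA56 had an interaction of -0.51 ± 0.09 (adjusted p = 0.00139): it read 8.11, 8.04 and 8.03 with TNFα, against 7.95, 7.96 and 7.99 with vehicle, in c-Jun siRNA cells, a log2 fold change of 0.10 ± 0.06. SNORA38B had an interaction of -0.57 ± 0.12, with 10.23, 10.55 and 10.31 with TNFα, against 10.60, 10.68 and 10.37 with vehicle, in c-Jun siRNA cells. SNORA52, in RPLP2, had an interaction of -0.34 ± 0.07 and SNORD13 one of -0.31 ± 0.07. Both had smaller or negative TNFα fold changes with c-Jun siRNA, -0.09 and -0.10, than with control siRNA, 0.25 and 0.21. With the position column as a block the interactions of SNORA38B, SNORA52 and SNORD13 were not called (adjusted p 0.172, 0.128 and 0.0981), and that of SNORA56 was. SNORD41 had -0.29 ± 0.07 and was not called without control siRNA and vehicle replicate 2, control siRNA and TNFα replicate 3 or c-Jun siRNA and vehicle replicate 3. The number called is sensitive to single arrays. It was 4 without control siRNA and TNFα replicate 3 and 5 without control siRNA and TNFα replicate 1. It was 15 without c-Jun siRNA and TNFα replicate 3. All were negative, where 2.93%, 3.0% and 3.11% of all genes were called negative and 1.38%, 1.56% and 1.48% positive. For the other genes called with control siRNA and not with c-Jun siRNA, a difference between the TNFα effects was not shown.

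The 4 groups can be placed side by side without a test. Of all 188 members, 85 had their lowest group mean with control siRNA and vehicle and 29 their highest there, while 81 had their highest with control siRNA and TNFα. Of the 71 members above the median of all genes, 48 had their lowest group mean with control siRNA and vehicle and 1 its highest there. In 34 of the 71 the highest was with control siRNA and TNFα. These orders were not counted over all genes, so they are not shown to be particular to snoRNAs. Over all 121 box C/D genes, the median deviation from each gene's 12-array mean was 0.005, -0.039 and 0.013 on the c-Jun siRNA and TNFα arrays and -0.018, -0.012 and -0.005 on the c-Jun siRNA and vehicle arrays. It was 0.005, 0.026 and 0.076 on the control siRNA and TNFα arrays and -0.032, -0.028 and -0.011 on the control siRNA and vehicle arrays, so the lowest array was c-Jun siRNA and TNFα replicate 2 and the control siRNA and vehicle arrays overlapped the c-Jun siRNA arrays. The 71 box C/D genes outside the largely dim SNORD113 to SNORD116 families gave 0.028, -0.044 and 0.075 on the c-Jun siRNA and TNFα arrays and -0.025, -0.011 and 0.005 on the c-Jun siRNA and vehicle arrays. It was 0.027, 0.065 and 0.103 on the control siRNA and TNFα arrays and -0.082, -0.049 and -0.078 on the control siRNA and vehicle arrays. The 67 box H/ACA genes gave -0.010, -0.002 and 0.033 with c-Jun siRNA and TNFα, 0.009, 0.013 and 0.008 with c-Jun siRNA and vehicle, 0.063, 0.011 and 0.079 under control siRNA plus TNFα, and -0.076, -0.066 and -0.033 with control siRNA and vehicle. In box H/ACA, and in box C/D once those families were left out, the 3 control siRNA and vehicle arrays were lower than the other 9, although in the 71 box C/D genes the highest of them, -0.049, lay close to the -0.044 of 1 c-Jun siRNA and TNFα array. These values were not tested.

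**Figure D3:**
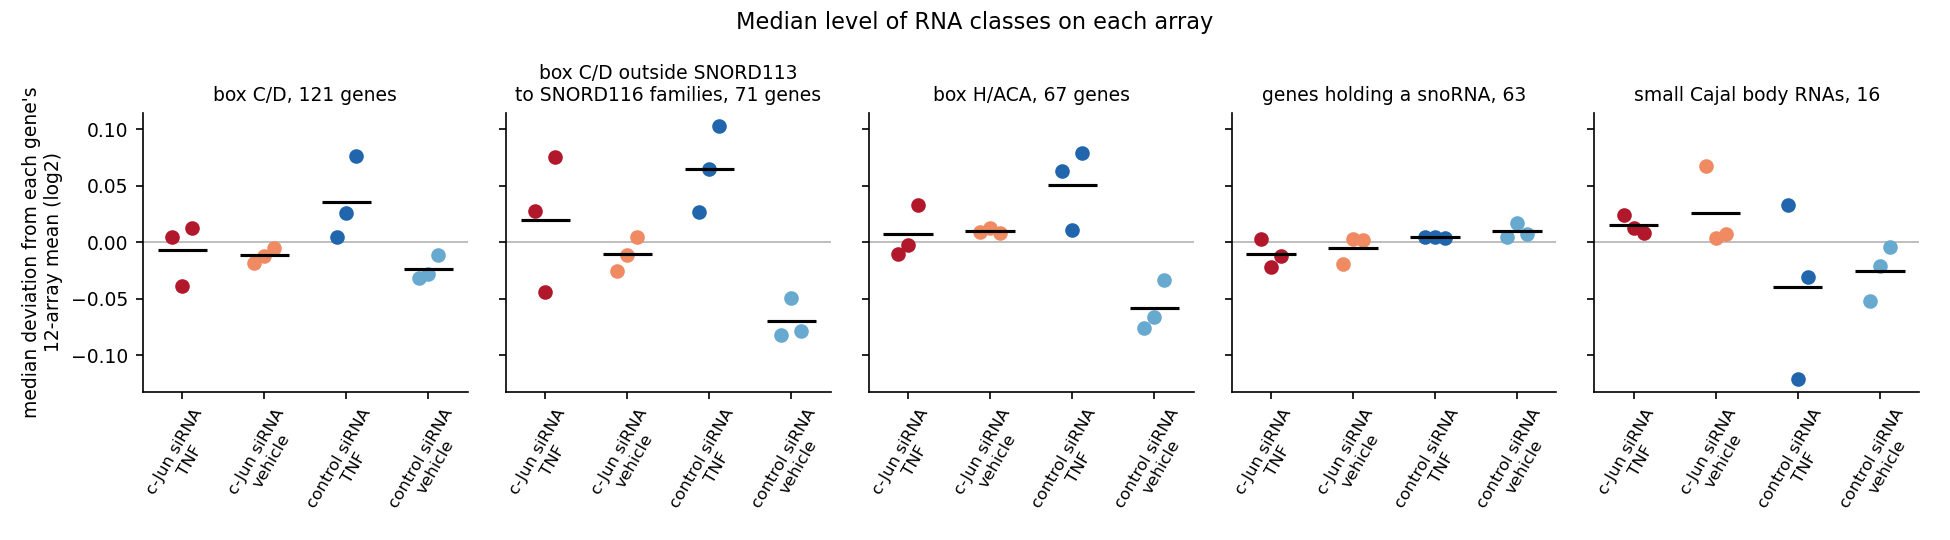
Median deviation of each list's genes from their 12-array means on every array, in log2 units, with a line at the mean of 3 arrays. The control siRNA and vehicle arrays are lowest in the 71 box C/D genes outside the SNORD113 to SNORD116 families (-0.082 to -0.049) and in box H/ACA (-0.076 to -0.033) but not over all 121 box C/D genes (-0.032 to -0.011), while the 63 holding genes stay between -0.022 and 0.017 on all arrays.

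c-Jun siRNA went with changes in both directions in vehicle-treated cells. Of the 188 snoRNA genes 33 were higher and 13 lower with c-Jun siRNA than with control siRNA, against 28.9% of all genes, 14.4% higher and 14.5% lower. Box H/ACA had 15 rises and 2 falls and box C/D 18 rises and 11 falls; the class medians were 0.058 in box H/ACA and 0.002 in box C/D. The comparison uses the same control siRNA and vehicle arrays as that of TNFα with control siRNA, so a low reading there raises both, and only each one's own values are given. Position column 5 holds 1 control siRNA array (assumed to vary like the other groups in tests within it) and all 3 c-Jun siRNA arrays. With the column as a block 14 were higher and 7 lower, where 9.74% of all genes were higher and 9.46% lower.

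SNORD53, in WDR43, a gene for an rRNA processing factor, read 6.56, 6.69 and 6.80 with c-Jun siRNA, against 6.12, 6.41 and 6.06 with control siRNA (log2 fold change 0.48 ± 0.09, adjusted p = 0.000401). SNORD45B, in RABGGTB, read 8.77, 8.73 and 8.71 with c-Jun siRNA, against 8.33, 8.17 and 8.45 with control siRNA, a log2 fold change of 0.42 ± 0.09. SNORD83A, SNORA56 and SNORD43 had log2 fold changes of 0.42 ± 0.10, 0.41 ± 0.06 and 0.41 ± 0.07. The calls for SNORD45B and SNORD83A were lost with the position column as a block (adjusted p 0.113 and 0.0708) and within column 5 (0.112 and 0.0825). SNORA14A, in POR, had the largest value, 0.73 ± 0.24, and it rested on 1 array: it read 5.47, 5.28 and 6.70 with c-Jun siRNA, against 4.97, 5.06 and 5.24 with control siRNA, and was not called with the position column as a block, within column 5, without c-Jun siRNA and vehicle replicate 3 or without control siRNA and vehicle replicate 1 or 2. Of the RPL13A snoRNAs 3 of 4 rose, SNORD32A by 0.23, SNORD34 by 0.34 and SNORD35A by 0.32 on the log2 scale.

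With TNFα present, c-Jun siRNA over control siRNA called 3 snoRNA genes higher and 23 lower, 1.6% and 12.2% of them. Of all genes 28.5% were called, 14.1% higher and 14.4% lower. The falls thus lay near the background share and the rises below it. Box C/D had 2 rises and 16 falls and box H/ACA 1 rise and 7 falls, with medians of -0.034 in box C/D and -0.043 in box H/ACA. This comparison shares the control siRNA and TNFα arrays with that of TNFα with control siRNA. Within position column 9, which holds 1 control siRNA and TNFα array, the box C/D median was 0. Within column 7, which holds 1 c-Jun siRNA and TNFα array, the medians were -0.102 in box C/D and -0.078 in box H/ACA. Tests within these columns assume that each lone array varies like the other groups. The 2 c-Jun siRNA comparisons share no arrays. Both called 8 genes lower, 61.5% of the 13 and 34.8% of the 23: SNORA38, SNORD113-4, SNORD114-3, SNORD114-26, SNORD14C, SNORD14E, SNORD49A and SNORD77. Both called SNORD43 and SNORD104 higher. The overlaps of these 2 comparisons were not counted over all genes either. SNORD13 was called higher with vehicle (0.18; adjusted p 0.138 with the position column as a block) and lower with TNFα (-0.13), but the last call was lost in 16 alternatives and kept in 10. It was lost without any 1 of the 3 c-Jun siRNA and TNFα arrays, without control siRNA and TNFα replicate 1 or 3, without control siRNA and vehicle replicate 3 and without c-Jun siRNA and vehicle replicate 1.

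The largest falls were at the imprinted chromosome 14 locus, whose SNORD113 and SNORD114 repeats lie in MEG8 and have no known rRNA target. SNORD114-3 read 6.51, 6.36 and 6.51 with c-Jun siRNA and TNFα, against 7.45, 7.14 and 7.47 with control siRNA and TNFα (log2 fold change -0.89 ± 0.09, adjusted p = 6.95e-07). With vehicle it read 6.56, 6.66 and 6.90 with c-Jun siRNA, against 7.10, 7.24 and 7.24 with control siRNA (log2 fold change -0.49 ± 0.09). The 6 c-Jun siRNA arrays all lay below the 6 control siRNA arrays. SNORD114-26 read 4.73, 4.61 and 4.64 with c-Jun siRNA and TNFα, against 5.46, 5.48 and 5.37 with control siRNA and TNFα, a log2 fold change of -0.77 ± 0.10; with vehicle it was -0.39 ± 0.10. SNORD113-4 had log2 fold changes of -0.67 ± 0.09 with TNFα and -0.30 ± 0.09 with vehicle. The call for SNORD113-4 with vehicle was lost without control siRNA and vehicle replicate 2 and without c-Jun siRNA and vehicle replicate 1 or 2, and with the position column as a block (adjusted p 0.163). The other 3 copies, SNORD113-3, SNORD114-2 and SNORD114-6, averaged between 2.92 and 3.32, near the bottom of the scale, and were not called.

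Both U14 copies in HSPA8 fell with c-Jun siRNA. SNORD14E read 7.95, 7.23 and 7.84 with c-Jun siRNA and TNFα, against 8.35, 8.34 and 8.21 with control siRNA and TNFα, a log2 fold change of -0.63 ± 0.13. With vehicle it read 7.28, 7.28 and 7.52 with c-Jun siRNA, against 7.79, 7.96 and 7.91 with control siRNA, one of -0.53 ± 0.13. SNORD14C had log2 fold changes of -0.29 ± 0.05 with TNFα and -0.36 ± 0.05 with vehicle; within position column 9, where control siRNA and TNFα has 1 array, the TNFα call was lost (adjusted p 0.0755). SNORD14C and SNORD14E are copies of 1 RNA and can share probe signal. HSPA8 itself had log2 fold changes of -0.02 ± 0.03 with TNFα and -0.08 ± 0.03 with vehicle, the second of which was called. Of the 6 GAS5 snoRNAs, 4 fell with c-Jun siRNA in TNFα (SNORD44, SNORD74, SNORD77 and SNORD78) and 3 in vehicle (SNORD75, SNORD77 and SNORD79), with log2 fold changes between -0.34 and -0.11 and no rise. GAS5 itself was read only on probe sets with several symbols, which were not used for genes.

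A few genes were higher with c-Jun siRNA. SNORD104, in SNHG25, read 10.39, 10.37 and 10.48 with c-Jun siRNA and TNFα, against 10.12, 10.05 and 10.29 with control siRNA and TNFα, a log2 fold change of 0.26 ± 0.05. With vehicle it read 10.39, 10.39 and 10.40 with c-Jun siRNA, against 10.18, 10.12 and 10.14 with control siRNA, one of 0.25 ± 0.05. SNORD43 had 0.30 ± 0.07 with TNFα and 0.41 ± 0.07 with vehicle. The groups did not overlap in either comparison for these 2 genes. Of box H/ACA, SNORA2A and SNORA3A were lower with c-Jun siRNA and TNFα than with control siRNA and TNFα, with log2 fold changes of -0.48 ± 0.11 and -0.22 ± 0.05. Within the position columns, each with a lone array in 1 group, the TNFα calls were lost in column 7 for SNORD104 (adjusted p 0.0816) and in column 9 for SNORD43 (0.0609) and SNORA2A (0.147).

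**Figure D4:**
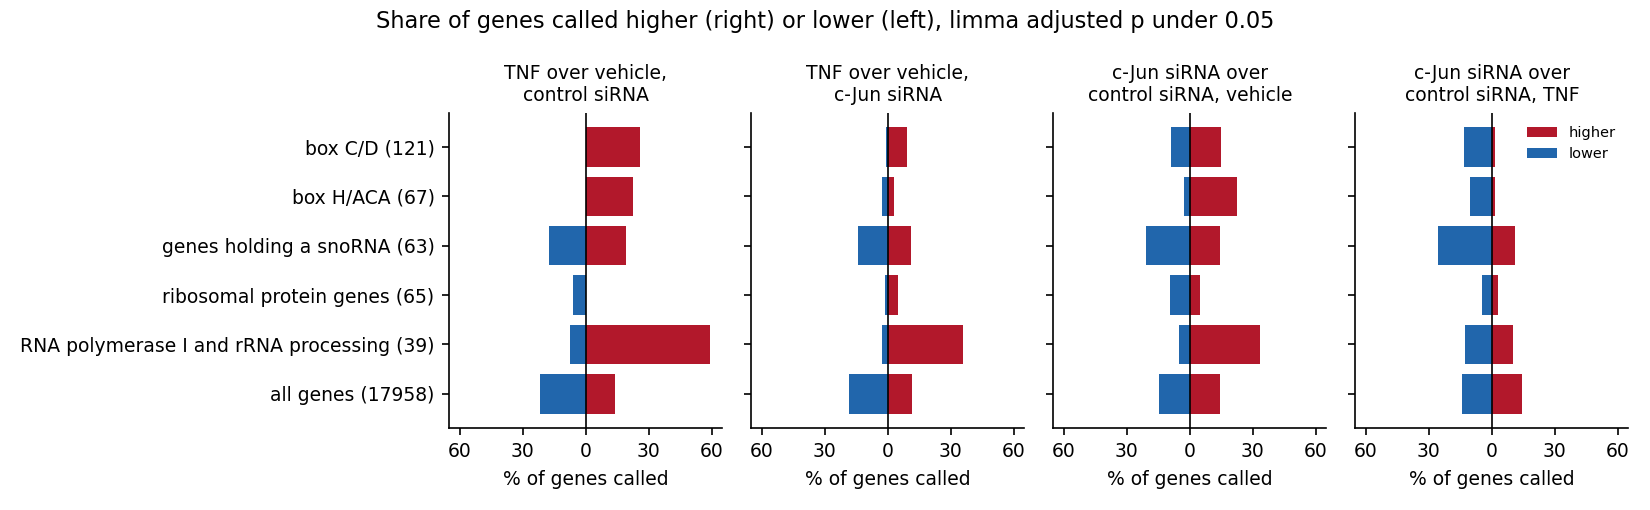
Share of genes called higher (bars to the right) or lower (bars to the left) in each pairwise comparison, for both snoRNA classes, the 63 holding genes, 65 ribosomal protein genes, 39 genes of RNA polymerase I and rRNA processing, and all 17958 genes. With TNFα and control siRNA the snoRNA classes have rises and no falls, and the ribosomal protein genes have 4 falls and no rises.

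The genes around the snoRNAs were called in both directions. With TNFα and control siRNA, 12 of the 63 measured holding genes rose and 11 fell, 19.0% and 17.5% of them. Of all genes 13.8% rose and 21.9% fell. The holding genes' median level was 10.49, and of all genes above the median level 21.8% rose and 34.2% fell. Against these brighter genes the rises lay near the background share and the falls below it. Of the 27 snoRNA genes called higher that have a measured holding gene, the holding gene was called higher for 8, lower for 3 and neither for 16. The snoRNA's log2 fold change exceeded that of its holding gene in 69 of 86 pairs, and the medians were 0.130 for the snoRNAs and -0.003 for the holding genes. Across the 86 pairs, which share arrays and in part holding genes, Pearson's r was 0.175 in this comparison, 0.358 for TNFα with c-Jun siRNA, 0.184 for c-Jun siRNA with vehicle and 0.093 for c-Jun siRNA with TNFα. By class the first of these was 0.119 over 35 box C/D pairs and 0.206 over 51 box H/ACA pairs. These are descriptions over gene pairs, not tests.

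Single pairs differed in how the snoRNA and its holding gene compared. DKC1 rose by 0.17 ± 0.03 with TNFα and control siRNA, beside 0.61 for SNORA56, while the other snoRNA it holds, SNORA36A, had -0.12 and was not called. WDR43 rose by 0.38 ± 0.05, close to the 0.37 of SNORD53. NOL11 rose by 0.18 ± 0.04, beside 0.38 for SNORA38B. KHDC4 fell by 0.10 on the log2 scale (SE 0.04), against a rise of 0.57 for SNORA80E, and RPLP2 had -0.10 ± 0.03, against 0.25 for SNORA52. TNPO2, an importin gene, had -0.43 ± 0.04 for c-Jun siRNA with vehicle, while SNORD41 inside it had 0.21 ± 0.05; with TNFα the values were -0.42 ± 0.04 for TNPO2 and -0.08 ± 0.05 for SNORD41. RPL3, which holds SNORD83A and SNORD43, had -0.00 ± 0.03 with TNFα and control siRNA and was called in no comparison.

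**Figure D5:**
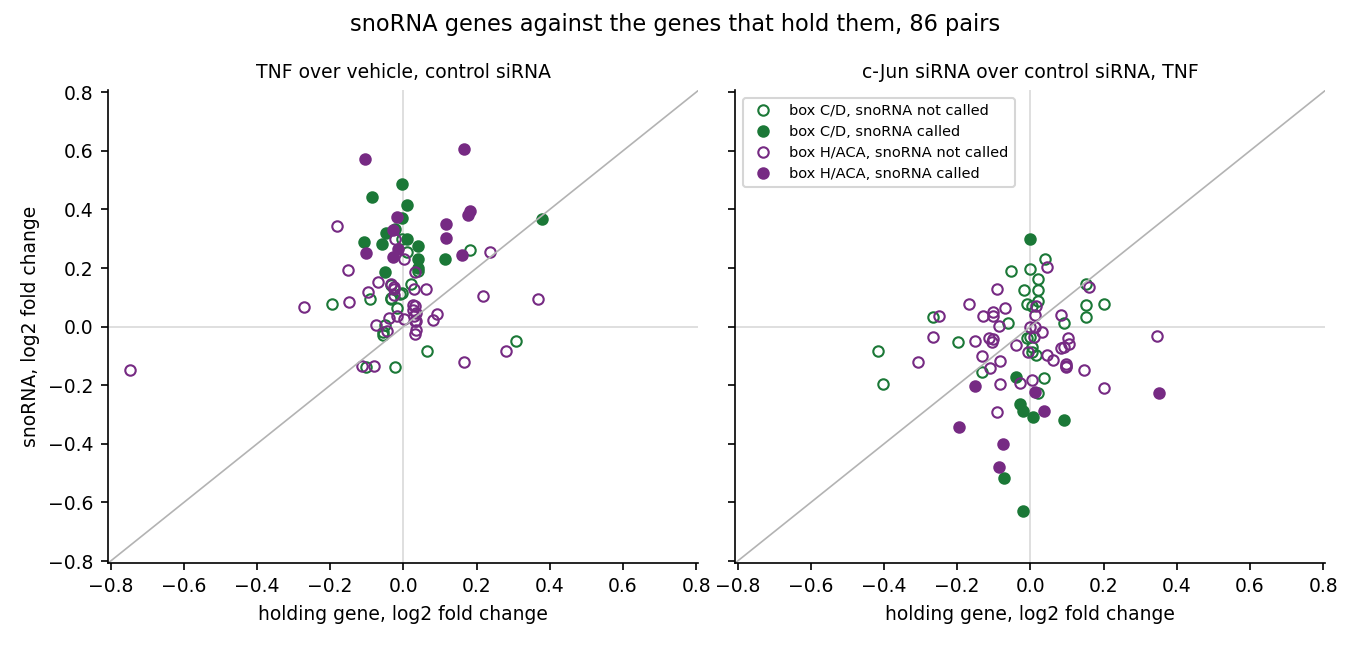
Log2 fold change of each snoRNA gene (vertical) against that of the gene that holds it (horizontal), 86 pairs, for TNFα over vehicle with control siRNA (left) and c-Jun siRNA over control siRNA with TNFα (right); the diagonal marks equal change. In the left panel 69 pairs lie above the diagonal and in the right panel 33 do.

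Of genes that act with snoRNAs, the lists below were counted in the same fit. Of all genes 13.8% rose and 21.9% fell with TNFα and control siRNA, and of the 8979 genes above the median level, where most of the genes of the next 2 lists lie, 21.8% and 34.2%. Of 22 measured core and assembly proteins of the snoRNA particles, 10 rose and none fell with TNFα and control siRNA, and 7 rose and 1 fell with TNFα and c-Jun siRNA, where 11.3% of all genes rose and 18.3% fell. They included NOP58, a core protein of box C/D particles (0.22 ± 0.03 with control siRNA and 0.23 ± 0.03 with c-Jun siRNA), and the box H/ACA core protein GAR1 (0.23 ± 0.05 and 0.27 ± 0.05). The assembly factors NAF1 (box H/ACA) and ZNHIT6 (box C/D) had 0.29 ± 0.05 and 0.39 ± 0.05 with control siRNA. The list's median was 0.071 with control siRNA, against -0.023 over all genes. c-Jun siRNA went with 8 rises and no falls in vehicle and 5 and none in TNFα, where 14.4% and 14.1% of all genes rose and 14.5% and 14.4% fell, among them PIH1D1, of the R2TP assembly complex (0.31 ± 0.05 and 0.24 ± 0.05). RPAP3 was the 1 fall, with TNFα and c-Jun siRNA.

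Of 39 genes of RNA polymerase I and rRNA processing, 23 rose and 3 fell with TNFα and control siRNA, and 14 rose and 1 fell with TNFα and c-Jun siRNA. The rises were 59.0% and 35.9% of the list, against 13.8% and 11.3% of all genes, and the falls 7.69% and 2.56%, against 21.9% and 18.3%. RRS1, a ribosome assembly factor, had a log2 fold change of 0.99 ± 0.05 with control siRNA and 0.55 ± 0.05 with c-Jun siRNA, an interaction of -0.43 ± 0.07 (adjusted p = 0.000331). NOL6, PNO1 and NIP7, which act in pre-rRNA processing and subunit assembly, had 0.73 ± 0.04, 0.65 ± 0.06 and 0.57 ± 0.03 with control siRNA. The interaction was called for 8 genes of the list, 7 of them negative, where 3.59% of all genes were called negative and 1.88% positive. With c-Jun siRNA 13 rose and 2 fell in vehicle, and 4 rose and 5 fell in TNFα; the TNFα shares, 10.3% and 12.8%, lay near the 14.1% and 14.4% of all genes.

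Other lists had these counts, to be read against 13.8% of all genes higher and 21.9% lower with TNFα and control siRNA. Of 15 measured exosome and 3′ end trimming genes, 2 rose and 2 fell with TNFα and control siRNA; TENT4B, which adds adenosine tails to 3′ ends of non-coding RNA, had 0.40 ± 0.05 for c-Jun siRNA with vehicle and 0.38 ± 0.05 with TNFα. Of 65 ribosomal protein genes none rose and 4 fell with TNFα and control siRNA, with a median of -0.018. Of 16 small Cajal body RNAs, relatives of snoRNAs that guide modification of spliceosomal RNA, 2 rose (SCARNA4 by 0.44 and SCARNA16 by 0.21) and none fell, with a median of -0.012; the rises, 12.5%, were near the share of all genes. Of 5 measured non-coding host genes none was called with TNFα and control siRNA, and SNHG32 was lower with c-Jun siRNA in vehicle (-0.11 ± 0.03) and in TNFα (-0.13 ± 0.03).

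Over the 4 pairwise comparisons 78 of the 188 snoRNA genes were called at least once, 41.5% of them against 51.9% of all genes, and 110 never, and the largest absolute log2 fold change was 0.892. The median standard error of a member's pairwise log2 fold change was 0.074. SNORA10 and SNORA15 were on more than 1 probe set each; those of SNORA10 held identical values.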

How the data were processed

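The authors deposited log2 expression values per probe set, used here as given; per the labels' protocols, total RNA was column-purified and copied with a random-primed whole-transcript kit. The submitters' processing notes list Affymetrix Expression Console 1.1 and PLIER without giving roles; the log base and common scale were inferred from the values (2.27 to 13.97, array quartiles within 0.061). The value table held 33297 probe sets: 19181 carried 1 symbol, 2055 several, and 12061 are unnamed here. Of the 191 snoRNA probe sets with 1 symbol, 188 genes were taken; another 74 with several symbols were tested apart.

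All 12 arrays and 17958 genes entered 1 linear model with a mean for each group (limma 3.58.1, R 4.3.3), with trended moderated variances, two-sided tests and Benjamini-Hochberg adjustment over all genes; genes were called at an adjusted p under 0.05. Errors are standard errors of log2 fold changes and SDs over 3 arrays. The fitting step was tested on simulated data. Other steps used Python 3.11.15, pandas 2.3.3 and matplotlib 3.10.9.

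The holding gene is the smallest protein-coding, long non-coding or transcribed pseudogene whose RefSeq span contains the snoRNA, with a few corrected by hand; strand was planned as a criterion but not used. The members and lists were chosen with earlier results of these data known. Named are, per pairwise comparison, up to 5 rises and 5 falls among called snoRNA genes whose 3 arrays do not overlap, up to 5 interaction genes, the 8 highest means, their holding genes, up to 4 called members per list, and JUN; other genes were chosen after their values were seen. 1 result that this rule takes is not reported here. Replicate numbers were checked for pairing: the 18 same-number pairs of arrays correlated at -0.059 to 0.088 in their deviations, so arrays were not paired. Alternatives were normalisations, filters, floors, variance models, feature sets, blocks and each array left out.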

Additional observations from a re-analysis of the deposited data

Results flagged for a closer look

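The TNFα effect differed between c-Jun siRNA and control siRNA cells, by the interaction test of limma, for 9 snoRNA genes. They are 4.79% of the members and all negative, near the 3.59% of all genes called negative, while 1.88% were called positive. Given as the log2 fold change with c-Jun siRNA minus that with control siRNA, the values were -0.57 for SNORA38B, -0.51 for SNORA56, -0.39 for SNORD34, -0.34 for SNORA52, -0.33 for SNORA1, -0.33 for SNORD35A, -0.31 for SNORD13, -0.29 for SNORD41 and -0.26 for SNORA48. In the same order, the TNFα log2 fold changes with c-Jun siRNA were -0.19, 0.10, -0.10, -0.09, -0.16, -0.13, -0.10, -0.06 and 0.04, and those with control siRNA 0.38, 0.61, 0.29, 0.25, 0.17, 0.19, 0.21, 0.23 and 0.30. SNORA56 was called in all alternatives run; SNORA38B, SNORA52 and SNORD13 were among those lost with the position column as a block.

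Outside the genes compared, 74 probe sets carry several symbols with at least 1 snoRNA symbol among them. In a fit of all 33297 probe sets, 11 of them were higher with TNFα and control siRNA and none lower (limma, adjusted p under 0.05), where 8.39% of all probe sets were higher and 12.4% lower. Of the 27 that carry only snoRNA symbols, 2 were higher and none lower, with a median log2 fold change of 0.011. Their rises were thus near the background share, and most of the 11 carry symbols of other genes as well. With c-Jun siRNA and TNFα, 1 of the 74 was higher and 6 lower than with control siRNA and TNFα, where 7.86% of all probe sets were higher and 7.78% lower, so the falls were at the background share. Probe sets with several symbols can also read a holding gene.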

How the results depend on the processing

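For TNFα over vehicle with control siRNA the number of snoRNA genes called stayed between 29 and 53 over all settings, with at most 2 falls, and each single array left out gave 38 to 50. Shares of all genes called in the same setting follow in brackets, higher before lower. Fitting every probe set lowered the counts, and adjustment then ran over more features. It gave 29 rises and no falls for this comparison (12.1% and 18.9%). c-Jun siRNA had 23 rises and 7 falls with vehicle (12.5% and 12.1%) and 2 and 12 with TNFα (11.9% and 11.8%). The interaction had 2 negative calls (0.897% and 2.47%). Without a variance trend 17 were called for c-Jun siRNA with TNFα, 2 higher and 15 lower (13% and 13%). The interaction then had 4 calls, all negative (1.28% and 2.67%). With values below 4 set to 4, c-Jun siRNA had 22 rises and 8 falls with vehicle (13.5% and 13.3%). With TNFα it had 13 calls, 2 rises and 11 falls (13.2% and 13.3%). The interaction then had 3 negative calls (1.42% and 2.91%). Leaving out the dimmest 30% of genes kept 111 members and gave 14 negative interaction calls (3.34% and 5.7%). The position column as a block gave 8 for TNFα with c-Jun siRNA and 21 for c-Jun siRNA with vehicle. Comparisons within a column, chosen after seeing the data, gave 26 for c-Jun siRNA with vehicle in column 5 and 13 for c-Jun siRNA with TNFα in column 9, where control siRNA has 1 array each. Each array left out gave 15 to 22 calls for TNFα with c-Jun siRNA and 4 to 15 for the interaction. It gave 32 to 49 and 18 to 26 for c-Jun siRNA with vehicle and with TNFα. No share of all genes is given beside the ranges over left-out arrays. The cause of these shifts was not tested.

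Class medians moved as follows, box C/D before box H/ACA where both are given. Centring each array gave -0.036 and -0.022 for TNFα with c-Jun siRNA and 0.036 and 0.091 for c-Jun siRNA with vehicle. Without the dimmest 30% the box C/D medians were 0.189 and 0.031 for TNFα with control and with c-Jun siRNA, both classes gave 0.097 and 0.128 for c-Jun siRNA with vehicle, and the interaction gave -0.146 and -0.164. The floor of 4 gave box C/D medians of 0.012 for TNFα with control siRNA and 0 for c-Jun siRNA with TNFα and for the interaction. The position block gave 0.02 and 0.035 for TNFα with c-Jun siRNA. Within column 7 box C/D had 0.114 for TNFα with control siRNA, and the classes -0.102 and -0.078 for c-Jun siRNA with TNFα; within column 9 box C/D had 0 there. With single arrays left out the medians ranged from 0.072 to 0.101 and 0.098 to 0.142 for TNFα with control siRNA, -0.009 to 0.008 and -0.014 to 0.022 with c-Jun siRNA, -0.007 to 0.022 and 0.046 to 0.1 for c-Jun siRNA with vehicle, -0.053 to -0.019 and -0.062 to -0.024 with TNFα, and -0.079 to -0.043 and -0.167 to -0.094 for the interaction.

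Replicate numbers did not pair the arrays. Counts with the replicate number as a block follow, with shares of all genes higher and lower in brackets. TNFα with control siRNA had 53 calls, 52 higher and 1 lower (13.7% and 21.5%). TNFα with c-Jun siRNA had 19, 14 higher and 5 lower (11.2% and 18%). c-Jun siRNA with vehicle had 45, 33 higher and 12 lower (14.1% and 14.1%). c-Jun siRNA with TNFα had 24, 4 higher and 20 lower (14% and 14.2%). The interaction had 9, all negative (1.75% and 3.47%). No count moved past 1.5 times. Of the 61 called results of snoRNA genes singled out by the naming rule, 31 were called in every alternative that could be fitted and none reversed. Of 94 that were not called, 42 were called in some alternative. Signal near the bottom of the scale limits the 60 members under 4, and 3 arrays a group limit the rest.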

Other observations

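MEG3, a long non-coding RNA of the same imprinted chromosome 14 locus as the SNORD113 and SNORD114 repeats, was chosen after its values were seen. It averaged 5.69 ± 0.06 with c-Jun siRNA and TNFα, against 6.02 ± 0.07 with control siRNA and TNFα, and 5.57 ± 0.11 with c-Jun siRNA and vehicle, against 6.21 ± 0.09 with control siRNA and vehicle (SD, n = 3 each). The log2 fold changes for c-Jun siRNA were -0.33 ± 0.08 with TNFα and -0.63 ± 0.08 with vehicle, both called by limma, and TNFα gave no called change of MEG3 under either siRNA (-0.19 ± 0.08 with control siRNA). The larger of these values was with vehicle for MEG3 and with TNFα for SNORD114-3 (-0.89 ± 0.09, against -0.49 ± 0.09 with vehicle); that difference was not called as an interaction for either gene.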
